A study of Mus musculus with 10 samples.

Results

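The genes described here carry out and control the synthesis of sterols and fatty acids under the sterol regulatory element-binding proteins (SREBPs). They are 30 genes selected by name: 4 regulators, 19 genes of the sterol branch and 7 genes of the fatty acid branch. All 30 were matched by Ensembl identifier to their symbols, and all 30 were among the 16669 genes tested, out of 41091 gene identifiers counted. The question put to them was whether the sterol branch and the fatty acid branch behaved alike when 2 Polycomb subunits were targeted. CBX7 and CBX8 are such subunits, chromodomain proteins of the Polycomb repressive complex PRC1.

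All libraries came from C57BL6 mice, from adult olfactory epithelium taken 9 days after its injury with methimazole, from which it regrows, then dispersed and grown as adherent cultures. Cultures were grown with EGF and FGF2 and were all transduced with a lentiviral short hairpin: 4 libraries had a non-targeting scrambled hairpin (shCTR 1, 2, 5 and 6), 3 a hairpin against Cbx7 (shCBX7 1, 2 and 5) and 3 a hairpin against Cbx8 (shCBX8 1, 2 and 6). Total RNA was sequenced with its strand kept. The animals' age, the hairpin sequences and the number of animals behind a culture are not given in the sources used here, and the replicates are called biological without a statement that cultures or animals were separate, so the p-values speak only to the spread among the libraries, part of which may be technical.

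SREBPs are made as membrane proteins of the endoplasmic reticulum. When sterols are scarce, the escort protein SCAP carries them to the Golgi, where proteases free the part that enters the nucleus, while INSIG proteins hold SCAP back when sterols are plentiful. SREBP-2, the product of Srebf2, acts mainly on cholesterol synthesis and uptake, and SREBP-1c, a product of Srebf1, mainly on fatty acid synthesis. Both bind sterol regulatory elements, usually beside sites for NF-Y and Sp1.

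Of the 30 members, 23 had a RefSeq promoter entry on GRCm38.p6. The 250 bases before each start were searched on both strands for TCACNCCA (the core of a sterol regulatory element), CCAAT (the NF-Y box) and GGGCGG (the Sp1 box). Some members have several starts, so the 23 members had 29 windows. TCACNCCA was found for 3 of the 23 members, namely Srebf2, Hmgcs1 and Msmo1. It was in 3 of the 29 windows and in 3.67% of all 32851 promoter windows. CCAAT was found for 18 of the 23 members, in 19 of the 29 windows and in 33.8% of all windows. GGGCGG was found for 19 of the 23 members, in 21 of the 29 windows and in 32.7% of all windows. The other members with an entry did not hold these letters in that window, which says nothing of binding elsewhere. Srebf2 and Hmgcs1 are shown because they were both lower with the Cbx8 hairpin and hold the sterol regulatory core. In the stretches below, written 5′ to 3′ on the gene's strand, capitals mark these motifs in either orientation, so that ATTGG is CCAAT read on the opposite strand and CCGCCC is GGGCGG. The Srebf2 stretch is chr15:82147019-82147180 (plus strand), which ends just before the annotated gene. The GGGCGG boxes of Srebf2 at -79, -52 and -34 from the RefSeq start, in either orientation, lie past that end and are not shown. The Hmgcs1 stretch is chr13:119690101-119690350 (plus strand), which ends just before the RefSeq start.
Srebf2 promoter: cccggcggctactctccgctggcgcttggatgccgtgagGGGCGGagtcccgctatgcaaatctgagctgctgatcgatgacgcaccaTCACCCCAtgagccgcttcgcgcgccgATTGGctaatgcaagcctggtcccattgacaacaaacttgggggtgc
Hmgcs1 promoter: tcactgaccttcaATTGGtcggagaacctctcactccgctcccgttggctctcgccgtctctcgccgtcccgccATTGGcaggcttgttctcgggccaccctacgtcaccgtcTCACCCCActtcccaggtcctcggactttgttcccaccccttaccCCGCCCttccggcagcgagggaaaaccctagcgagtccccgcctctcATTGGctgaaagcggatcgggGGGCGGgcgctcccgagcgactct
The 3 sites with the sterol regulatory core are aligned here over 30 bases with the core alone in capitals. The core begins at -162 from the RefSeq start in Srebf2, at -137 in Hmgcs1 and at -177 in Msmo1. The sites are at chr15:82147096-82147125 and chr13:119690203-119690232 (both plus strand) and, for Msmo1, at chr8:64733737-64733766 (minus strand).
Srebf2 site: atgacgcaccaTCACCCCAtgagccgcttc
Hmgcs1 site: acgtcaccgtcTCACCCCActtcccaggtc
Msmo1 site: tctcactattcTCACTCCAtccgcgcagcc
The genes that carry these sites did not all change with the Cbx8 hairpin: Srebf2 and Hmgcs1 passed the test and fell, and Msmo1 did not pass.

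Levels are given in CPM, counts relative to the scaled library size, and between genes they are compared only per kilobase of annotated exon. In the control libraries Scd2, a stearoyl-CoA desaturase that puts the double bond into saturated fatty acids, had the highest mean level of the 30 at 161 ± 35.3 CPM per kilobase. It was followed by Hmgcs1, which makes HMG-CoA at the entry to the mevalonate pathway, at 83.5 ± 25.2, and by Cyp51, the lanosterol demethylase, at 59.2 ± 15.2. Scd1, the other main desaturase, stood at 49.6 ± 4.86 and Fasn, the fatty acid synthase, at 33.5 ± 13.7 CPM per kilobase. The means of Cyp51 and Scd1 differed by less than the SD of Cyp51, so the order of these genes is not resolved. Those of Hmgcs1 and Cyp51 differed by less than the SD of Hmgcs1, but per kilobase Hmgcs1 was above Cyp51 in each control library. The lowest mean levels were those of Dhcr7, which catalyses a final step to cholesterol, at 2.52 ± 0.419, and of Idi1, the isopentenyl diphosphate isomerase, at 4.03 ± 1.53 CPM per kilobase. Tm7sf2 at 4.28 ± 0.777 and Acaca at 4.41 ± 0.740 were within the SD of Idi1 from its mean, so the order of Idi1, Tm7sf2 and Acaca is not resolved. Dhcr7 was also within that SD, but per kilobase it was below Idi1, Tm7sf2 and Acaca in each control library. Both branches were therefore expressed in the control cultures, with every member above 0 in all 10 libraries. With the Cbx8 hairpin Elovl6, which lengthens palmitate to stearate, fell from 22.1 ± 4.94 to 4.93 ± 2.23 CPM per kilobase.

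**Figure D1:**
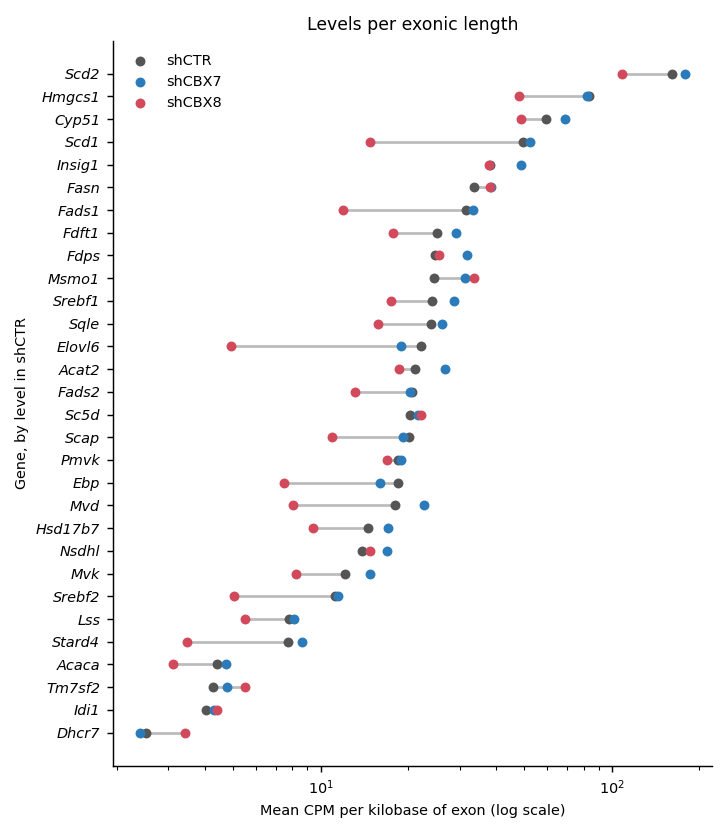
Mean level of each member in CPM per kilobase of annotated exon (log axis), ordered by the shCTR mean, with 1 point each for shCTR (n = 4), shCBX7 (n = 3) and shCBX8 (n = 3) and a grey line from shCTR to shCBX8. Scd2 and Hmgcs1 led in the controls, and Elovl6, Scd1 and Fads1 have the longest lines.

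Reads assigned to genes ran from 22763014 to 50463172 per library. Unmapped reads ran from 9.83 to 21.7% in shCTR against 5.03 to 7.81% in shCBX7 and shCBX8. Cbx8 was lower in shCBX8 than in shCTR (log2 fold change -1.31, adjusted p = 0.00416), whereas Cbx7 in the libraries labelled shCBX7 overlapped the controls (log2 fold change -0.67, adjusted p = 0.929), so its level does not check that label. The libraries shCBX8 1 and 6 were close to each other and shCBX8 2 stood nearer to the controls. Summed fibroblast markers (20 genes, none at 0 in all libraries) ran from 9766 to 39559 CPM in shCTR, from 11043 to 23628 in shCBX7 and from 1497 to 6316 in shCBX8. Of the 9 olfactory neuron markers the mature-neuron gene Omp was under 1 CPM in every library, and Adcy3, Gap43 and Ncam1 were the most abundant. Their sum ran from 113 to 152 CPM in shCTR, from 126 to 216 in shCBX7 and from 46.6 to 109 in shCBX8. Between shCBX8 and shCTR 4 of the 7 tested passed, 2 higher and 2 lower, beside 17% of all genes as higher and 15.9% as lower. Of the 8 sustentacular cell markers Cyp2g1 was at most 1.94 CPM and Cyp1a2 at most 0.119 CPM, while the sum of that list ran from 113 to 10378 CPM. In bulk RNA, fewer cells of a type and less RNA per cell cannot be told apart.

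With the Cbx8 hairpin, 3 of the 4 regulators were lower than with the control hairpin. Srebf2, the gene of SREBP-2, measured 62.8, 78.8, 83.3 and 97.9 CPM in shCTR 1, 2, 5 and 6 and 29.4, 50.4 and 28.5 CPM in shCBX8 1, 2 and 6. All 3 shCBX8 libraries lay below all 4 controls. Its log2 fold change was -1.16 (SE 0.23, adjusted p = 0.00762 by edgeR's quasi-likelihood test with Benjamini-Hochberg adjustment), which is 2.24-fold lower. The call held with each of the 10 libraries left out in turn (adjusted p at most 0.0420). The gene lies at chr15:82147181-82205379.

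Scap, the gene of the escort protein, measured 138, 192, 139.7 and 130.5 CPM in shCTR 1, 2, 5 and 6 and 62.6, 113 and 67.9 CPM in shCBX8 1, 2 and 6. The groups did not overlap, although shCBX8 2 came near the lowest control. Scap differed by -0.88 on the log2 scale (SE 0.24, adjusted p = 0.0223), and the call was lost without shCBX8 1 (adjusted p = 0.0950) or shCBX8 6 (adjusted p = 0.0948). It was also lost with controls 1 and 2 left out together (adjusted p = 0.0928) and with a background covariate, the forward-strand level over receptor genes (adjusted p = 0.190). Srebf1, which encodes both SREBP-1 forms, measured 123, 124, 136 and 160.0 CPM in the controls and 77.3, 118 and 100.02 CPM in shCBX8 1, 2 and 6. It too did not overlap. It differed by -0.46 on the log2 scale (SE 0.16), but its adjusted p of 0.0499 was at the threshold. Leaving out any library other than shCTR 1 or shCBX8 2 ended the call (adjusted p from 0.0516 to 0.193), and so did the replicate block (adjusted p = 0.0650). The counts do not separate the SREBP-1a and SREBP-1c transcripts.

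Insig1, the sterol-responsive retention protein and itself a textbook SREBP target, measured 78.0, 86.3, 128 and 181 CPM in the controls and 104, 136 and 113 CPM in shCBX8 1, 2 and 6. The shCBX8 values lay inside the control range. Its log2 fold change was -0.012 with a 95% interval from -0.68 to 0.66 (adjusted p = 0.980). The sign of so small a value changed with the settings, and with the background covariate Insig1 was lower and passed (-1.07, adjusted p = 0.0238). Its SD over the controls, 47.3 CPM, was the largest of the 4 regulators.

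Across all 30 members, 11 passed the test between shCBX8 and shCTR, all 11 lower, where 32.9% of all genes tested passed, 15.9% as lower and 17% as higher. By branch these were 3 of 4 regulators, 4 of 19 sterol genes and 4 of 7 fatty acid genes. The share in the sterol branch, 4 of 19 as lower, was thus close to that of all genes. The median log2 fold change was -0.29 over the sterol genes and -0.65 over the fatty acid genes, beside -0.01 over all genes tested. The sterol median was -0.14 without shCBX8 6, -0.52 without shCBX8 2, -0.45 without shCTR 1 and -0.19 without shCTR 6. Without shCBX8 1 or without shCBX8 6, 0 sterol genes and 1 fatty acid gene passed, and without shCBX8 2 these were 8 and 6. The count over all genes, 5478 with all libraries, was 2261 without shCBX8 1, 2279 without shCBX8 6 and 6193 without shCBX8 2. With the replicate block 2 sterol genes and 3 fatty acid genes passed, while the count over all genes was 6036. Among the 10 alternative settings that do not leave out a single library, Srebf2, Elovl6 and Fads1 passed in all 10, Stard4 in 9, Scap, Ebp and Scd1 in 8, Fads2 in 7, Mvd in 6, Hmgcs1 in 5 and Srebf1 in 4. In 9 members every shCBX8 library was below every control (19.5% of all genes), and in 1, Dhcr7, every one was above (22.9% of all genes).

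**Figure D2:**
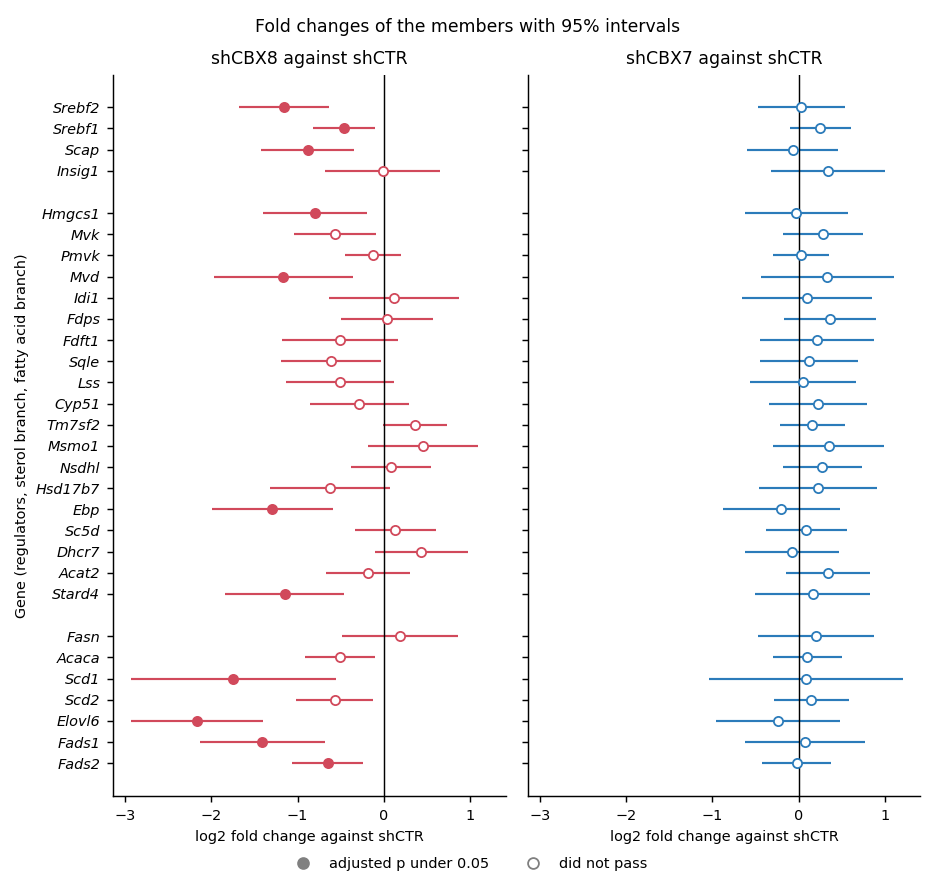
Log2 fold change of each member against shCTR for shCBX8 (left) and shCBX7 (right), with 95% intervals from edgeR. Filled points have an adjusted p under 0.05 and open points did not pass. The 11 filled points are all in the left panel and all below 0.

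In the first part of the sterol branch, from acetyl-CoA to the isoprenoid units, Hmgcs1 and Mvd fell and their neighbours did not pass. Hmgcs1 measured 266, 321, 418 and 529.6 CPM in shCTR 1, 2, 5 and 6 and 193, 292 and 177 CPM in shCBX8 1, 2 and 6. Libraries shCBX8 1 and 6 were below every control, and shCBX8 2 was above shCTR 1. The log2 fold change was -0.80 (SE 0.27, adjusted p = 0.0480), and this marginal call was lost when any of 7 libraries was left out (adjusted p from 0.0544 to 0.172) and with the replicate block (adjusted p = 0.109). The 3 libraries without which it held were shCTR 1, shCTR 2 and shCBX8 2.

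Mvd, the decarboxylase that yields isopentenyl diphosphate, measured 27.3, 25.5, 37.3 and 43.2 CPM in the controls and 11.2, 24.7 and 8.73 CPM in shCBX8 1, 2 and 6. Libraries shCBX8 1 and 6 were far below the controls, and shCBX8 2 was just under the lowest of them. Mvd differed by -1.17 on the log2 scale (SE 0.36, adjusted p = 0.0346). It was not called without shCTR 5 or 6 or without shCBX8 1 or 6 (adjusted p from 0.0680 to 0.130), nor with the replicate block (adjusted p = 0.0675). Mvk and Pmvk phosphorylate mevalonate before Mvd acts. Mvk had a log2 fold change of -0.57 (adjusted p = 0.0643), which passed only when shCBX8 2 was left out among the fits that leave out a library (-0.82, adjusted p = 0.0123). Pmvk differed by -0.13 (adjusted p = 0.529). Acat2, the cytosolic thiolase that joins acetyl-CoA units, had a value of -0.18 (adjusted p = 0.538), and Idi1 one of 0.12 (adjusted p = 0.801).

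The next steps join isoprenoids to squalene and close the ring. Fdps, which makes farnesyl diphosphate, had a log2 fold change of 0.038 (95% interval -0.50 to 0.58) and Fdft1, the squalene synthase, one of -0.50 (-1.18 to 0.17). Neither passed. Sqle, the squalene epoxidase, measured 88.1, 127, 156 and 162 CPM in the controls and 79.1, 113 and 70.1 CPM in shCBX8 1, 2 and 6. Its libraries shCBX8 1 and 6 were below every control and shCBX8 2 was not, with a log2 fold change of -0.61 (adjusted p = 0.0962). Lss, which forms lanosterol, had a value of -0.50 (adjusted p = 0.187). Leaving out shCBX8 2 alone brought Lss to -0.97 (adjusted p = 0.00620) and Sqle to -0.84 (adjusted p = 0.0434).

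From lanosterol to cholesterol the members went both ways, and of the 8 enzymes only Ebp passed. Ebp, the sterol isomerase, measured 39.8, 68.2, 33.7 and 28.4 CPM in shCTR 1, 2, 5 and 6 and 16.3, 20.2 and 15.5 CPM in shCBX8 1, 2 and 6. All shCBX8 libraries were below all controls, of which shCTR 2 was the highest by far. The log2 fold change was -1.29 (SE 0.31, adjusted p = 0.0149), and the call was lost without shCBX8 1 or 6 (adjusted p = 0.0634 and 0.0648). It was also lost with controls 1 and 2 left out together (-0.86, adjusted p = 0.0558) and with the background covariate (-0.71, adjusted p = 0.395).

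Dhcr7 measured 12.3, 15.7, 17.6 and 13.0 CPM in the controls and 21.1, 19.4 and 19.01 CPM in shCBX8 1, 2 and 6, so that all 3 were above all 4 controls. Its log2 fold change of 0.44 did not pass (SE 0.24, adjusted p = 0.185) except with the replicate block (0.60, adjusted p = 0.0411). Msmo1, which oxidises the methyl groups of lanosterol's descendants, measured 116, 122, 206 and 158 CPM in the controls and 203, 249 and 167 CPM in shCBX8. The groups overlapped (log2 fold change 0.45, SE 0.28, adjusted p = 0.241). Tm7sf2 encodes a sterol reductase, and its annotated span overlaps that of the gene Vps51 on the same strand. Tm7sf2 measured 17.3, 20.3, 14.9 and 22.8 CPM in the controls and 20.6, 27.5 and 24.6 CPM in shCBX8 (log2 fold change 0.36, adjusted p = 0.1201).

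The remaining late enzymes did not pass. Cyp51 had a log2 fold change of -0.29 (adjusted p = 0.411). Nsdhl and Hsd17b7 complete the removal of the methyl groups, with values of 0.085 (adjusted p = 0.774) and -0.63 (adjusted p = 0.143). Sc5d, the desaturase that acts after Ebp, had a value of 0.13 (adjusted p = 0.648). The 95% interval of Hsd17b7 ran from -1.32 to 0.067, which includes a fall as large as that of Ebp, while those of Nsdhl and Sc5d began at -0.38 and -0.34.

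Stard4, a carrier of cholesterol between membranes and no synthetic enzyme, measured 30.1, 36.6, 47.0 and 58.5 CPM in the controls and 17.5, 28.4 and 12.4 CPM in shCBX8 1, 2 and 6. Every shCBX8 library was below every control, with shCBX8 2 nearest to them. The log2 fold change was -1.15 (SE 0.31, adjusted p = 0.0215), and it was lost without shCBX8 1 or 6 (adjusted p = 0.0872 and 0.0816) and with the replicate block (adjusted p = 0.0561).

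In the fatty acid branch the elongase gene Elovl6 and the desaturase genes Scd1, Fads1 and Fads2 fell, and Scd2, Acaca and Fasn did not pass. Elovl6 measured 136, 146, 182 and 105 CPM in shCTR 1, 2, 5 and 6 and 26.8, 47.9 and 20.5 CPM in shCBX8 1, 2 and 6. Each shCBX8 library was under the lowest control, shCTR 6, by more than a factor of 2. The log2 fold change of -2.17 (SE 0.34, adjusted p = 0.00351) was the largest among the members, 4.49-fold lower, and it passed with any 1 library left out (adjusted p at most 0.0227). The gene lies at chr3:129532355-129638495.

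Scd1 measured 209, 257, 243 and 262 CPM in the controls, a narrow range, and 36.8, 154 and 26.2 CPM in shCBX8 1, 2 and 6. Library shCBX8 2 was thus several times higher than the other 2 and still below the controls. The log2 fold change was -1.75 (SE 0.53, 95% interval -2.94 to -0.56, adjusted p = 0.0329). Leaving out shCTR 2, 5 or 6 or shCBX8 1 or 6 ended the call (adjusted p from 0.0532 to 0.115), and without shCBX8 2 it was -2.94 (adjusted p = 0.000170). Scd2 measured 689, 823, 857 and 1147 CPM in the controls and 524, 715 and 536 CPM in shCBX8 1, 2 and 6. Its groups overlapped through shCBX8 2, and its log2 fold change of -0.57 just missed the threshold (SE 0.20, adjusted p = 0.0519). Scd1 and Scd2 are neighbouring, similar genes, and reads that map to both were not counted.

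Fads1, the desaturase that completes arachidonic acid, measured 132, 142, 150.4 and 184 CPM in the controls and 38.1, 96.5 and 37.6 CPM in shCBX8 1, 2 and 6. The groups did not overlap (log2 fold change -1.41, SE 0.32, adjusted p = 0.0119), and without shCBX8 1 or 6 the adjusted p was 0.0533 and 0.0520. Fads2, which acts before Fads1 on the same fatty acids, measured 65.7, 53.0, 70.1 and 82.3 CPM in the controls and 37.3, 55.0 and 37.5 CPM in shCBX8. It overlapped through shCBX8 2 and shCTR 2. Its difference of -0.65 on the log2 scale (SE 0.18, adjusted p = 0.0260) was no longer called without shCTR 5 or shCBX8 1 or 6 (adjusted p from 0.0543 to 0.111) and with the replicate block (adjusted p = 0.0630).

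Acaca, the acetyl-CoA carboxylase that supplies malonyl-CoA, measured 58.4, 73.2, 82.8 and 86.8 CPM in the controls and 47.4, 66.9 and 44.7 CPM in shCBX8 1, 2 and 6, of which shCBX8 2 overlapped. The value of -0.51 did not pass (SE 0.18, adjusted p = 0.0572). Fasn, which uses that malonyl-CoA to build palmitate, measured 230.4, 279, 389 and 568 CPM in the controls and 362, 517 and 375 CPM in shCBX8. The shCBX8 values lay within the control range, with a log2 fold change of 0.19 (95% interval -0.48 to 0.86, adjusted p = 0.648). That sign was not stable: with controls 1 and 2 left out together the value was -0.21 (adjusted p = 0.566).

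**Figure D3:**
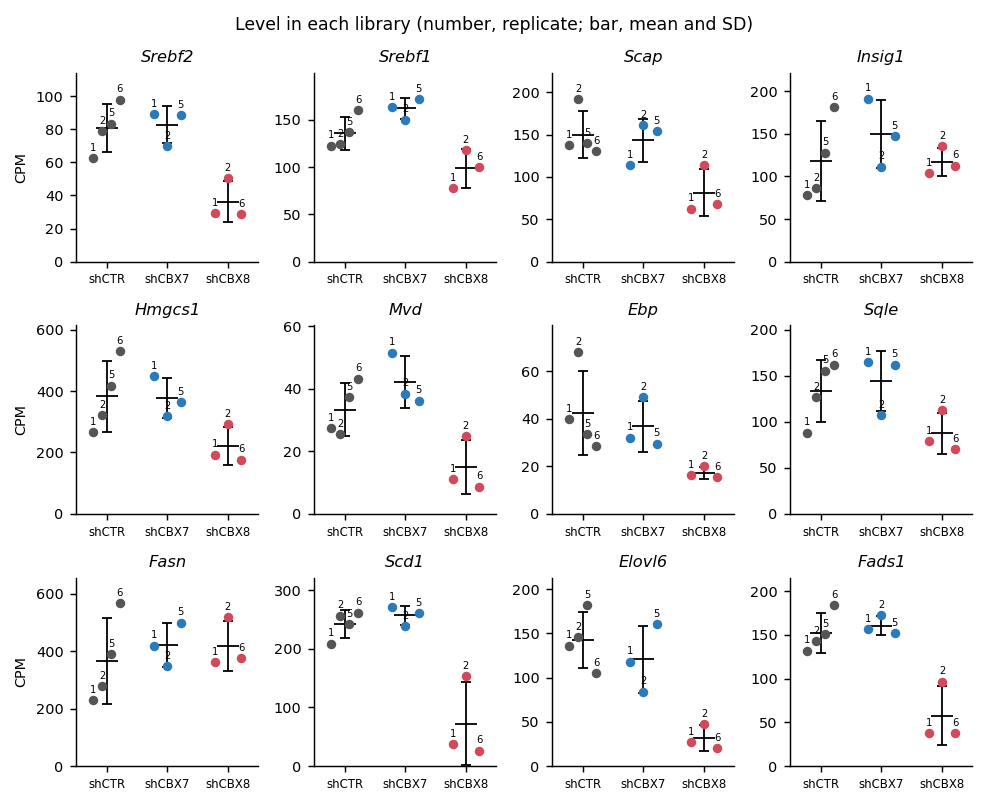
Level in CPM of 12 members in each library, with the replicate number beside each point and bars for the group mean and SD (shCTR n = 4, shCBX7 n = 3, shCBX8 n = 3). Srebf2, Elovl6 and Fads1 in shCBX8 lie below all controls, Fasn and Insig1 lie among them, and shCBX8 2 is the highest shCBX8 point in each of the 12 panels.

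Ratios of counts inside a library need no scaling between libraries. These 3 ratios were chosen after the levels had been seen and carry no test. Elovl6 had 0.592, 0.524, 0.468 and 0.185 counts for each Fasn count in shCTR 1, 2, 5 and 6. The same ratio was 0.283, 0.243 and 0.321 for the shCBX7 libraries 1, 2 and 5 and 0.0739, 0.0927 and 0.0546 for the shCBX8 libraries 1, 2 and 6. The shCBX8 values were below those of all other libraries, while shCTR 6 was itself under shCBX7. Scd1 had 0.303, 0.312, 0.283 and 0.228 counts for each Scd2 count in the controls, 0.284, 0.254 and 0.253 with the Cbx7 hairpin and 0.0703, 0.215 and 0.0489 with the Cbx8 hairpin. In shCBX8 2 this ratio was close to that of shCTR 6, and in shCBX8 1 and 6 it was several times lower. Fads1 had 2.01, 2.69, 2.14 and 2.24 counts for each Fads2 count in the controls and 1.02, 1.76 and 1.002 in shCBX8, again without overlap.

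To set the branches side by side, log2(CPM + 0.5) was averaged over the genes of a branch in each library and expressed as the difference from the control mean. The sterol branch stood at -0.34, -0.098, 0.17 and 0.28 in shCTR 1, 2, 5 and 6, against -0.44, 0.076 and -0.60 in the shCBX8 libraries 1, 2 and 6. Library shCBX8 2 was within the controls, and shCBX8 1 and 6 were below them. The fatty acid branch stood at -0.25, -0.095, 0.11 and 0.23 in the controls and at -1.31, -0.42 and -1.43 in shCBX8 1, 2 and 6, all below the controls. The difference between the branches, fatty acid minus sterol, was 0.098, 0.0030, -0.058 and -0.043 in the controls. With the Cbx7 hairpin it was -0.25, -0.039 and -0.027, and with the Cbx8 hairpin -0.87, -0.50 and -0.83, in the same order of libraries. The fatty acid branch was thus lower than the sterol branch, relative to control, in each of the 3 shCBX8 libraries, and these did not overlap with the other 7. This is a description of 19 and 7 genes, with no test of the difference between the branches, and within the fatty acid branch Elovl6, Scd1 and Fads1 had the largest values.

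**Figure D4:**
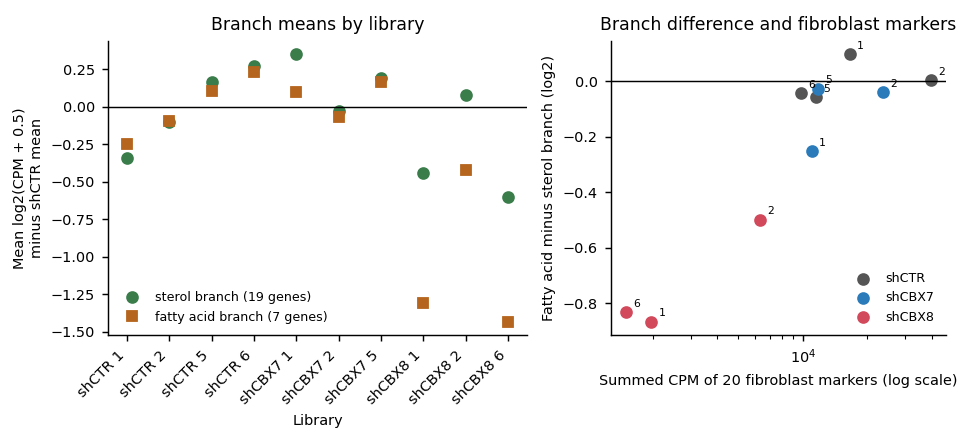
Left, mean log2(CPM + 0.5) of the sterol branch (circles) and the fatty acid branch (squares) in each library, minus the shCTR mean. Right, fatty acid minus sterol difference against the summed CPM of 20 fibroblast markers (log axis), by group with replicate numbers. The 3 shCBX8 libraries have the lowest differences, from -0.87 to -0.50, and the lowest marker sums.

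Most members shared the order of libraries within a group. Within shCBX8, library 2 had the highest level of 29 of the 30 members, against 39.6% of all genes tested. Fibroblast marker sums were also highest in shCBX8 2, at 6316 CPM against 1962 and 1497 in shCBX8 1 and 6. Of the 20 markers 6 passed between shCBX8 and shCTR, all lower, beside 15.9% of all genes as lower, and their part in the lower levels of the members was not tested. Krt8 and Krt18, epithelial keratins of the sustentacular list, went the other way and were higher in shCBX8, and the sum of that list ran from 3672 to 10378 CPM in shCBX8 and from 225 to 1587 in shCTR. Of its 7 markers tested 3 passed, all higher, and of the 9 horizontal basal cell markers 3 passed, all higher, beside 17% of all genes as higher. The horizontal basal sum ran from 1179 to 1439 CPM in shCBX8 and from 317 to 1176 in shCTR. The globose basal sum ran from 60.3 to 107 CPM in shCBX8 and from 33.4 to 45.5 in shCTR. Of the 5 globose basal markers tested 3 passed, 2 higher and 1 lower. The part of these epithelial markers in the members' levels was not tested. The ensheathing, immune and endothelial lists summed to at most 106, 33.9 and 57.4 CPM. The 7 adipocyte markers summed to at most 83.4 CPM in any library.

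Within shCTR, library 1 had the lowest level of 23 of the 30 members (17.7% of all genes) and library 6 the highest of 22 (30.4% of all genes). Unmapped reads made up 21.7, 19.6, 14.0 and 9.83% in shCTR 1, 2, 5 and 6, in the same order of libraries. The part of this in the control levels was not tested. With controls 1 and 2 left out together the median log2 fold change in shCBX8 was -0.59 over the sterol genes, lower than the -0.29 with all controls. In that fit 2 sterol genes and 2409 of 16900 genes tested passed, against 4 and 5478 of 16669 with all controls. The heat map of members by library shows both patterns.

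**Figure D5:**
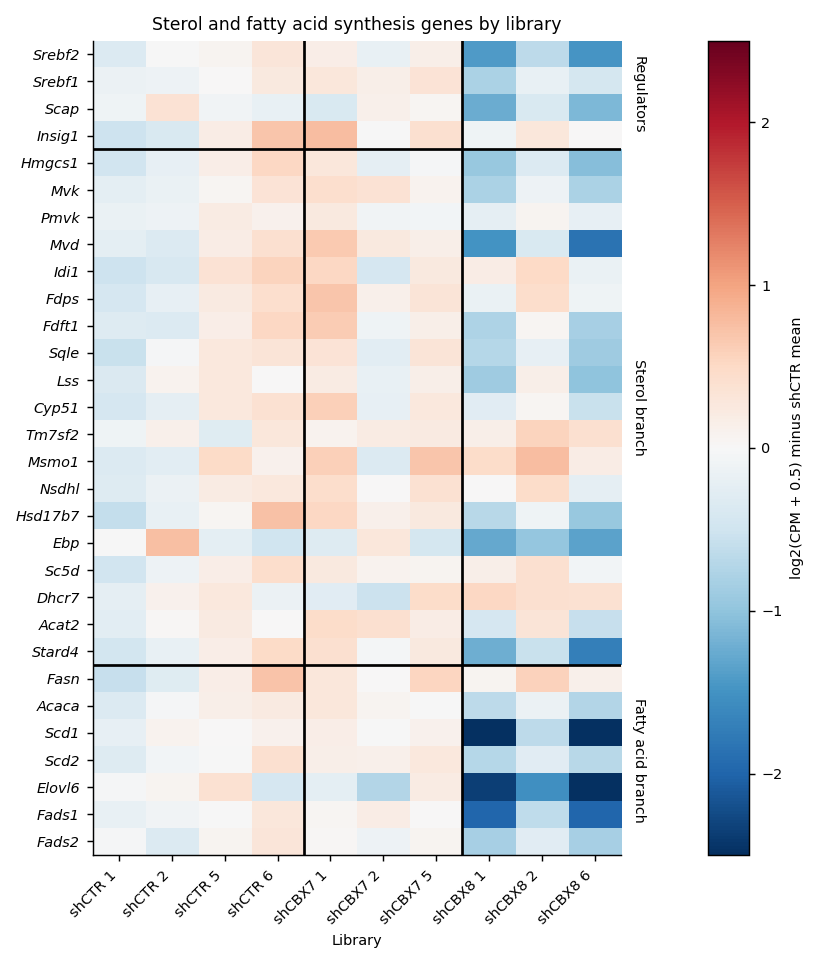
Level of each member in each library as log2(CPM + 0.5) minus its shCTR mean, with rows grouped as regulators, sterol branch and fatty acid branch, and libraries grouped by hairpin (colours end at 2.5 to either side). The deepest blue is at Scd1, Elovl6 and Fads1 in shCBX8 1 and 6, and shCBX8 2 is paler in almost every row.

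With the Cbx7 hairpin no member passed the test against shCTR, and 0% of all genes tested did by edgeR's quasi-likelihood test. At an unadjusted p under 0.05 there were 975 genes in all and 0 among the members, and DESeq2 called 91 genes, none of them a member. Of the 30 members 24 had a value above 0, and the medians were 0.17 over the sterol genes and 0.08 over the fatty acid genes, beside 0.00 over all genes. For 0 members were the groups apart, against 3.73% of all genes with shCBX7 lower and 1.7% with it higher. Srebf2 measured 89.3, 69.7 and 88.6 CPM in shCBX7 1, 2 and 5 (log2 fold change 0.033, 95% interval -0.47 to 0.54). Srebf1 measured 164, 150.0 and 172 CPM (0.25, -0.098 to 0.61), Scap 114, 161 and 154 CPM (-0.068, -0.59 to 0.46) and Insig1 192, 112 and 148 CPM (0.34, -0.32 to 1.01). All 4 overlapped the controls.

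Among the sterol genes Hmgcs1 measured 449, 319 and 364 CPM in shCBX7 1, 2 and 5 (-0.024, -0.62 to 0.57) and Sqle 164, 107 and 162 CPM (0.12, -0.45 to 0.69). The smallest p-values in that branch were 0.145 for Acat2, with a log2 fold change of 0.34, and 0.158 for Fdps, with 0.37, both with an adjusted p of 0.929. Among the fatty acid genes Fasn measured 419, 347 and 499 CPM (0.20, -0.47 to 0.87), Scd1 271, 239 and 261 CPM (0.084, -1.04 to 1.21) and Scd2 953, 941 and 1033 CPM (0.15, -0.29 to 0.59). Elovl6 measured 118, 84.3 and 160.2 CPM (-0.24, -0.95 to 0.48). The intervals of Srebf2, Elovl6, Scd1 and Scd2 in this comparison did not reach the values those genes had with the Cbx8 hairpin, which were measured against the same shCTR libraries. For Scd1 the interval was wide and includes values down to -1.04.

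The hairpins were also compared with each other, with 28.6% of all genes passing and 13.3% as lower in shCBX8. Of the 30 members 13 passed, all lower in shCBX8 than in shCBX7. They were Srebf2, Srebf1 and Scap of the regulators, Mvk, Mvd, Ebp and Stard4 of the sterol branch, and all fatty acid genes but Fasn. Srebf2 differed by -1.19 (SE 0.24, adjusted p = 0.00975), Srebf1 by -0.72 (adjusted p = 0.0154) and Scap by -0.81 (adjusted p = 0.0392). Insig1 did not pass (-0.36, adjusted p = 0.423). The Scap call was lost without shCBX8 1 or 6, shCBX7 2 or 5 or shCTR 5 (adjusted p from 0.0565 to 0.139), with library size only, with only the 2 groups compared and with the background covariate (adjusted p from 0.0567 to 0.0745). The Srebf1 call was lost without shCBX8 1 (adjusted p = 0.0583) or shCBX8 6 (adjusted p = 0.0570).

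In the sterol branch Mvd differed by -1.50 (adjusted p = 0.0194), Stard4 by -1.31 (adjusted p = 0.0180), Ebp by -1.09 (adjusted p = 0.0349) and Mvk by -0.85 (adjusted p = 0.0222). Hmgcs1 (-0.77, adjusted p = 0.0681) and Sqle (-0.73, adjusted p = 0.0722) did not pass. These 4 calls were all lost without shCBX7 1, without shCBX8 1 or without shCBX8 6, where 0 sterol genes passed. Without shCBX7 2, 2 sterol genes passed. Over all genes the count was 4762 with all libraries and 2730 without shCBX7 1. It was 1848 without shCBX8 1, 1784 without shCBX8 6 and 2900 without shCBX7 2. The fatty acid genes that passed were Elovl6 (-1.93, SE 0.35, adjusted p = 0.00678), Scd1 (-1.83, adjusted p = 0.0359), Fads1 (-1.48, adjusted p = 0.0136), Scd2 (-0.72, adjusted p = 0.0321), Fads2 (-0.63, adjusted p = 0.0391) and Acaca (-0.61, adjusted p = 0.0421). Fasn stood at -0.012 (adjusted p = 0.982). Groups were apart for 15 members, each lower in shCBX8 (22.6% of all genes), and for 0 members was shCBX8 apart and higher (25.6%). This comparison shares its shCBX8 libraries with the one against control, so it is no separate evidence. Of the fatty acid genes, 1 or 2 passed without shCTR 5, without any of the shCBX7 libraries, or without shCBX8 1 or 6. Elovl6 passed in each of these fits. The count over all genes was 3934 without shCTR 5, 4325 without shCBX7 5 and as given above in the others.

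Genes around the pathway, taken from written lists, showed no single direction with the Cbx8 hairpin. The counts in each list stand beside 32.9% of all genes passing, 17% as higher and 15.9% as lower. Of 9 further genes of SREBP processing and partner factors, 3 passed and all were lower, with a median over the 9 of -0.19. Nfyc, a subunit of NF-Y, measured 16.3, 16.8, 16.4 and 15.8 CPM in shCTR 1, 2, 5 and 6 and 6.60, 6.85 and 7.59 CPM in shCBX8 1, 2 and 6 (log2 fold change -1.22, SE 0.13, adjusted p = 0.00124). The groups were far apart, while the other NF-Y subunits Nfya and Nfyb did not pass (adjusted p = 0.539 and 0.588). Sp1 measured 162, 147, 154 and 145 CPM in the controls and 104, 102 and 101 CPM in shCBX8 (-0.57, adjusted p = 0.00726). Mbtps1, the first Golgi protease that cuts SREBPs, had a value of -0.45 (adjusted p = 0.0450), and that call was lost when any of 7 libraries was left out (adjusted p up to 0.176).

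Of 11 genes that use isoprenoids for other products, 6 passed, 3 higher and 3 lower. Coq2, of ubiquinone synthesis, rose by 0.74 on the log2 scale (adjusted p = 0.00426) and Ggps1, which makes geranylgeranyl diphosphate, by 0.63 (adjusted p = 0.00530). Rce1, a protease of prenylated proteins, had a value of -0.73 (adjusted p = 0.0116) and Pggt1b, a geranylgeranyl transferase subunit, one of -0.46 (adjusted p = 0.0128). Of 7 accessory genes of sterol synthesis and transport tested, 2 passed and both fell. Cyb5r3, a reductase that feeds electrons to desaturases and sterol oxidases, measured 357, 371, 339 and 542 CPM in the controls and 128, 169 and 115 CPM in shCBX8 (-1.55, adjusted p = 0.00245), and Osbp, an oxysterol-binding protein, had a value of -0.57 (adjusted p = 0.00522).

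The supply of acetyl-CoA and NADPH went both ways, with 4 of 8 genes past the threshold, 2 higher and 2 lower. Acss2, which makes acetyl-CoA from acetate, measured 33.0, 36.9, 32.6 and 33.2 CPM in the controls and 10.5, 18.1 and 13.8 CPM in shCBX8 (-1.26, adjusted p = 0.00266), and Slc25a1, the citrate carrier, had a value of -0.34 (adjusted p = 0.0391), a call lost when any of 6 libraries was left out (adjusted p up to 0.166). Me1 (0.79, adjusted p = 0.0190) and G6pdx (0.57, adjusted p = 0.0303), which make NADPH, were higher. Of 22 other genes of fatty acid synthesis and activation tested, 5 passed, 3 higher and 2 lower. The median log2 fold change over these 22 was 0.16, with 12 above 0 and 10 below. Elovl4 (-1.43, adjusted p = 0.0106) and Fads3 (-0.58, adjusted p = 0.0210) were lower. Acacb, the carboxylase isoform at mitochondria, measured 2.42, 4.01, 1.246 and 1.53 CPM in the controls and 6.202, 7.22 and 8.90 CPM in shCBX8 (1.70, adjusted p = 0.0280), and Mid1ip1, an activator of Acaca, had a value of 0.83 (adjusted p = 0.0230).

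Of 10 genes of the liver X receptors, sterol export and storage, 5 passed, 2 higher and 3 lower. Abca1, a cholesterol exporter, measured 270.3, 405, 267 and 265 CPM in shCTR 1, 2, 5 and 6 and 78.1, 88.0 and 106 CPM in shCBX8 1, 2 and 6 (-1.73, adjusted p = 0.00309). Abcg1, another exporter, measured 16.9, 7.81, 17.7 and 16.2 CPM in the controls and 44.0, 28.3 and 74.6 CPM in shCBX8 (1.74, adjusted p = 0.00727). These 2 exporters, both textbook targets of liver X receptors, thus moved in opposite directions. Mylip, which marks lipoprotein receptors for degradation, had a value of -1.69 (adjusted p = 0.00800), and Lpcat3, which puts polyunsaturated fatty acids into phospholipids, measured 60.0, 64.5, 46.4 and 44.2 CPM in the controls and 19.05, 17.7 and 15.0 CPM in shCBX8 (-1.64, adjusted p = 0.00124). Of the 21 named genes around the pathway, 11 passed with each library left out in turn: Nfyc, Sp1, Coq2, Ggps1, Cyb5r3, Osbp, Acss2, Abca1, Abcg1, Mylip and Lpcat3. With the background covariate 5 of these did not pass, namely Sp1, Ggps1, Abca1, Abcg1 and Mylip (adjusted p from 0.0566 to 0.197), nor did Sp1 with library size only (adjusted p = 0.0536). Beside Mbtps1 and Slc25a1, calls were lost without shCBX8 1 or 6 or both for Pggt1b, Rce1, Elovl4, Fads3, Me1, Acacb, Mid1ip1 and G6pdx (highest adjusted p from 0.0532 for Elovl4 to 0.112 for G6pdx). The last 3 were also lost without some of the control libraries, and G6pdx without shCBX7 1.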

How the data were processed

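Whole-transcriptome libraries from 10 mouse cultures were used, grouped by the hairpin named in their titles. The submitters' processing notes name bcl2fastq 2.17, Trim Galore 0.4.3, the aligner STAR 2.5.0a and the build mm10. Per the labels' protocols, 500 ng of total RNA entered each stranded library. The deposited values are raw read counts per Ensembl gene, unnormalized, in STAR's layout of unstranded, forward and reverse columns. The reverse-strand count was used, because the forward one held 3.42 to 10.4% of the stranded counts. Lines that name no gene were not part of library sizes or fits. Of all reads, 5.03 to 21.7% were unmapped, 15.4 to 22.1% mapped to several places, 12.5 to 23.6% fell in no gene and 0.290 to 0.637% were ambiguous. Symbols, coordinates and exon lengths came from GENCODE M21 of GRCm38, which matched 40217 of 41091 identifiers.

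Low counts were removed with filterByExpr (minimum count 10), scaling factors were trimmed means of M values (TMM), and a quasi-likelihood model with a term for group was fitted to the 10 libraries together in edgeR 4.0.16 (R 4.3.3). P-values were adjusted by Benjamini-Hochberg over 16669 genes, with 0.05 as the threshold. The script was tested on simulated data. The common biological coefficient of variation was 0.375. Counts of same-group libraries differed by more than sampling noise (chi-square per degree of freedom 25.5 to 393). That does not show that they came from separate cultures or animals. Each library was counted as 1 replicate.

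Whether replicate numbers mark pairs is not stated. The main fit has no term for them, so its p-values ignore any pairing. Deviations of same-numbered shCBX8 and shCTR libraries correlated at 0.23, 0.29 and 0.13 over genes, for numbers 1, 2 and 6. The differently numbered shCTR 1 and shCBX8 6 also correlated at 0.13, as did shCTR 6 and shCBX8 1, so these values do not settle the pairing. For shCBX7 and shCTR the values were -0.07, 0.76 and 0.41 for numbers 1, 2 and 5. The libraries of shCBX8 and shCBX7 share only 2 numbers. A block for replicate number was therefore fitted only as an alternative. Alternatives were median-ratio scaling, library size only, no low-count filter, a filter on a mean under 1 CPM, the Wald test of DESeq2 1.42.0, unstranded counts, only the 2 groups compared, a replicate block, each library left out, shCTR 1 and 2 left out together, and a background covariate (the log2 forward-strand level over 1653 receptor genes).

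The members and all gene lists were chosen with earlier results of these data known. All members are named against shCTR for the Cbx8 hairpin. In the other comparisons the regulators, Hmgcs1, Sqle, Fasn, Scd1, Scd2, members past the threshold and the 2 smallest p of each branch are named, and of the surrounding lists up to 4 genes by p among those past the threshold. Fads2 is given by library beyond that rule.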

Additional observations from a re-analysis of the deposited data

Results flagged for a closer look

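In the control group the Scap level of shCTR 2, 192 CPM, lay far from the others, which ran from 130.5 to 140 CPM. This library was set apart by its gap to the nearest other control relative to the whole range of the 4. The 30 members were checked in this way, and chance alone flags about 1 in 20 such groups. Without shCTR 2 the log2 fold change of Scap between shCBX8 and shCTR was -0.77 (adjusted p = 0.0408).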

How the results depend on the processing

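Of the alternatives, several counts and medians moved. For shCBX8 against shCTR, leaving out each library gave 2261 to 6193 genes, 0 to 8 sterol and 1 to 6 fatty acid members, medians from -0.52 to -0.14 (sterol) and -0.86 to -0.54 (fatty acid), and log2 fold changes from -0.073 to 0.34 for Idi1, -0.18 to 0.19 for Fdps, -0.13 to 0.23 for Nsdhl, -0.044 to 0.30 for Sc5d, -0.015 to 0.48 for Fasn and -0.20 to 0.27 for Insig1. For shCBX8 against shCBX7 it gave 1784 to 6005 genes, 0 to 10 sterol and 1 to 6 fatty acid members, a sterol median from -0.87 to -0.36, and Fasn from -0.21 to 0.12. For shCBX7 against shCTR it gave 0 to 41 genes (41 without shCTR 6), Srebf2 from -0.079 to 0.16, Sqle -0.044 to 0.31, Scap -0.14 to 0.089 and Hmgcs1 -0.17 to 0.17. Between shCBX8 and shCTR the replicate block left 2 sterol members and turned Insig1 to 0.081. It ended the calls of Srebf1, Hmgcs1, Mvd, Stard4 and Fads2, added Dhcr7 and changed no other call named. Same-numbered libraries correlated best with their own number in 6 of 10 cases. The block turned Hmgcs1 to 0.052 and Scd1 to -0.044 for shCBX7 against shCTR, where it called 0 genes, and between the hairpins it ended the calls of Stard4 (adjusted p = 0.0510), Acaca and Fads2. With library size only, the median of all genes was 0.17 for shCBX8 against shCTR (-0.01 with scaling), and 67.2% of its calls were higher (51.6%). The sterol median was -0.12, Insig1 was 0.15 and Pmvk 0.047. Between the hairpins (67.1% higher, 53.5% with scaling) 3 fatty acid members and 4631 genes in all passed, and Fasn was 0.13. Only the 2 groups compared gave 2 sterol members against shCTR, with 5079 genes in all. It gave 3 fatty acid members between the hairpins, with 3677 genes in all. Insig1 was 0.013 without the filter, 0.011 at a mean of at least 1 CPM and 0.032 with unstranded counts, in shCBX8 against shCTR. At that mean Fasn was 0.039 between the hairpins. For shCBX7 against shCTR, Hmgcs1 was 0.038 without the filter and 0.057 unstranded, Scap was 0.019 unstranded, and DESeq2 called 91 genes.

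Leaving out shCTR 1 and 2 together gave 2409 genes, 2 sterol members, a sterol median of -0.59, Fasn -0.21, Idi1 -0.30, Sc5d -0.16, Nsdhl -0.15 and Fdps -0.26 for shCBX8 against shCTR. It gave 7 sterol members between the hairpins, with 4969 genes in all. For shCBX7 against shCTR it gave Scd2 -0.037, Fasn -0.18, Sqle -0.13, Insig1 -0.038, Srebf2 -0.13 and Scap 0.082. The background covariate differs strongly between groups. With it, shCBX8 against shCTR had 2311 genes, 9 sterol members, medians of -0.96 (sterol) and -1.21 (fatty acid), Msmo1 -0.13, Nsdhl -0.60, Sc5d -0.61, Fasn -0.84, Idi1 -0.96, Fdps -0.87 and Insig1 -1.07. Of these genes Fdps (adjusted p = 0.0299) and Insig1 (adjusted p = 0.0238) passed, and Scap and Ebp no longer did. For shCBX7 against shCTR it gave medians of -0.92 (sterol) and -0.77 (fatty acid), Insig1 -1.16, Acat2 -0.37, Scd2 -0.70, Scd1 -1.66, Fasn -1.21, Srebf2 -1.01, Srebf1 -0.38, Fdps -0.87, Sqle -0.997 and Cbx7 1.78, none of them passing. Between the hairpins it gave 3619 genes in all, 3 fatty acid members with a median of -0.50 over that branch, Fasn 0.37 and Insig1 0.091. Cbx8 itself did not pass in that fit (-1.05, adjusted p = 0.0831). The cause of these changes was not tested. Fits with fewer libraries gave counts in both directions. For shCBX8 against shCTR these were 2261 genes without shCBX8 1 and 6193 without shCBX8 2, against 5478 with all libraries. Among the settings that leave out no single library, Scd2 gained a call in 4, Acaca and Mvk in 2 each, and Tm7sf2 with library size only (0.55, adjusted p = 0.0327), in shCBX8 against shCTR. Srebf2 and Elovl6 stayed lower and past the threshold in shCBX8 against shCTR under all 20 alternatives. Intervals of the members reached 0.58 to either side in the median against shCTR, which limits what could be detected.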
